A study of Homo sapiens with 12 samples.

Results

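Death receptors and the necroptosis machinery were followed through their mRNA in HDLM-2, an established Hodgkin lymphoma cell line. The set comprised 10 genes chosen by name: the receptors TNFRSF10A, TNFRSF10B and FAS, the adaptor and protease pair FADD and CASP8, the inhibitor CFLAR, the kinases RIPK1 and RIPK3, the membrane effector MLKL, and the deubiquitinase CYLD. The platform annotation used here assigns these symbols to 15 of 48803 probes on the Illumina array. RIPK1 has no probe under its name in that annotation, so no RIPK1 value is reported. The other 9 genes were all tested, among 13613 genes in total, and the probe used for each was above background on all 12 arrays.

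HDLM-2 cells in culture were sampled in 4 groups of 3 arrays each, all collected at the end of a 24 h treatment period. The control group received neither drug. One group received 10 µM perifosine, an alkylphospholipid that inhibits AKT, another received 5 µM sorafenib, a multikinase inhibitor, and the last received both drugs at these doses (the combination). All 4 groups are 1 cell line, so no comparison here extends over cell lines or donors, and the labels do not state whether the replicates A, B and C are separate cultures. The p-values then cover only the variation among the arrays, part or all of which may be technical. The deposited values were already close to one common distribution, their sorted intensities differing by at most 1.09%. The background threshold was set from each array's own distribution. The count of 21935 to 22087 probes above background per array thus says little about how well the arrays match. Arrays of the same group correlated at 0.988 to 0.994 against 0.987 to 0.994 for arrays of different groups. Of 10 Hodgkin cell markers, 8 were above background on every array, among them TNFRSF8, which encodes CD30, and CCL17, whereas IL13 was above background on none. No measurement of cell death, protein or phosphorylation is among the sources used here, and those sources do not name the mode of cell death.

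Death receptors are membrane proteins that, on binding ligands such as TRAIL or FAS ligand, recruit the adaptor FADD through death domains, and FADD in turn recruits and activates caspase-8. Caspase-8 cuts downstream caspases and also cuts RIPK1 and RIPK3, and CFLAR, a caspase-8 homologue without protease activity, controls that step. Where caspase-8 is blocked, RIPK1 and RIPK3 form a complex in which RIPK3 phosphorylates MLKL, and MLKL then permeabilises the plasma membrane, which is necroptosis. CYLD removes ubiquitin chains from RIPK1 and so favours the death-inducing complexes. Much of this control acts on proteins, through cleavage, ubiquitin and phosphate, and is not visible in mRNA levels.

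Promoter sequence was available for 7 of the 10 genes, and those of MLKL and CASP8 are shown beside that of TNFRSF21, a receptor outside the set. MLKL is the effector of necroptosis and TNFRSF21 is the pathway receptor with the largest change, while CASP8 is the only one of the 7 with matches to interferon-type motifs. Each sequence is RefSeq's, on GRCh38.p14, and runs 5′ to 3′ on the gene's strand from 250 bases before to 50 bases after the annotated start, 300 bases in all. Capitals mark matches to the motifs searched on both strands: the STAT motif GAS (TTCNNNGAA), the core of the interferon-stimulated response element ISRE (GAAA, any 2 bases, GAAA), and the GC box (GGGCGG). The MLKL promoter lies at chr16:74700813-74701112 on the minus strand, that of TNFRSF21 at chr6:47309856-47310155 on the minus strand, and that of CASP8 at chr2:201233213-201233512 on the plus strand.
MLKL: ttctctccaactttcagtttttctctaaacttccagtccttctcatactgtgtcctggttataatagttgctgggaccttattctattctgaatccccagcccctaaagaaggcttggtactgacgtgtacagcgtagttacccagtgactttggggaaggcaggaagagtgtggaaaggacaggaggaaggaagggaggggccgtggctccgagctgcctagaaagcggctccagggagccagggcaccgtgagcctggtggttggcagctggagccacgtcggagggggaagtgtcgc
TNFRSF21: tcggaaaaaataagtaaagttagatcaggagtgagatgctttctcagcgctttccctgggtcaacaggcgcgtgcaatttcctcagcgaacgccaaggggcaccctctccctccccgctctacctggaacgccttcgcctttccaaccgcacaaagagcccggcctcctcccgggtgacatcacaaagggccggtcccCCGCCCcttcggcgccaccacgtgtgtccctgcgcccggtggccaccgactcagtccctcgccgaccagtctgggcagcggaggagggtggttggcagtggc
CASP8: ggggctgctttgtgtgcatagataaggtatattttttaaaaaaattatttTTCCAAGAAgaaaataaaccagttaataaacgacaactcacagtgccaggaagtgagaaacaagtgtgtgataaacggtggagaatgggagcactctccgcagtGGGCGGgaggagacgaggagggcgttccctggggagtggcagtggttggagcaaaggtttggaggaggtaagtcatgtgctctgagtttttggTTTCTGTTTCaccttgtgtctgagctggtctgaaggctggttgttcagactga
The MLKL window held no match to any of the 3 motifs and 9 CpG dinucleotides, and the TNFRSF21 window held 1 GC box and 23 CpG. The CASP8 window held 1 GAS, 1 ISRE core and 1 GC box, with 6 CpG. Among 35116 promoters of the same length, 7.66% hold a GAS match, 3.57% an ISRE core and 45.0% a GC box, and the median CpG count is 14. A match is a description of the letters and no evidence of a bound factor.

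Among the receptors, TNFRSF10A (TRAIL receptor 1, DR4) was lower in the combination and lower on arrays with sorafenib than on those without. Its deposited signal was 853, 862 and 816 in the control, 834, 794 and 892 with perifosine, 743, 672 and 758 with sorafenib, and 604, 623 and 581 in the combination. The combination arrays lay below all 9 others, the sorafenib arrays lay between them and the rest, and control and perifosine arrays overlapped. Group means were 844 ± 24.7 (SD, n = 3) in the control, 840.3 ± 49.5 with perifosine, 724 ± 46.0 with sorafenib and 603 ± 20.7 in the combination.

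Changes below are log2 differences of group means after background correction, which makes them larger than differences of the deposited signal for dim probes. They were tested with limma across all 13613 genes with Benjamini-Hochberg adjustment, and a gene counted as changed at an adjusted p under 0.05. TNFRSF10A fell by 0.58 ± 0.10 (SE) on the log2 scale in the combination against control, 0.667 of the control level (adjusted p = 0.0176), and fell by as much, 0.58 ± 0.10, in the combination against perifosine (adjusted p = 0.0225). Averaged over both perifosine states, the 6 arrays with sorafenib were lower by a log2 change of -0.42 ± 0.07 than the 6 without (adjusted p = 0.00683). Sorafenib alone gave -0.26 ± 0.10, with a 95% interval from -0.48 to -0.04, and did not pass the threshold (adjusted p = 0.253). The step from sorafenib to the combination was -0.32 ± 0.10 (adjusted p = 0.753), without overlap of the arrays, and the interaction of the drugs was -0.31 ± 0.14 (adjusted p = 0.649). Whether the combination exceeds the sum of the single drugs is thus not shown for TNFRSF10A.

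The call for TNFRSF10A in the combination against control was lost when any 1 of the 3 control or 3 combination arrays was left out, with values from -0.61 to -0.55 and adjusted p up to 0.112, and that against perifosine was lost without perifosine A or C or any 1 of the combination arrays (5 of 12 such fits). Among 12 other settings the call against control was lost in 2, with only the groups compared (adjusted p = 0.0512) and with the replicate block (adjusted p = 0.0558). The call against perifosine was lost in 3, with only the groups compared (adjusted p = 0.131), with the replicate block (adjusted p = 0.0557) and without a filter on dim probes. The sorafenib effect over 6 against 6 arrays kept its call in all 12 (adjusted p up to 0.0255).

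**Figure D1:**
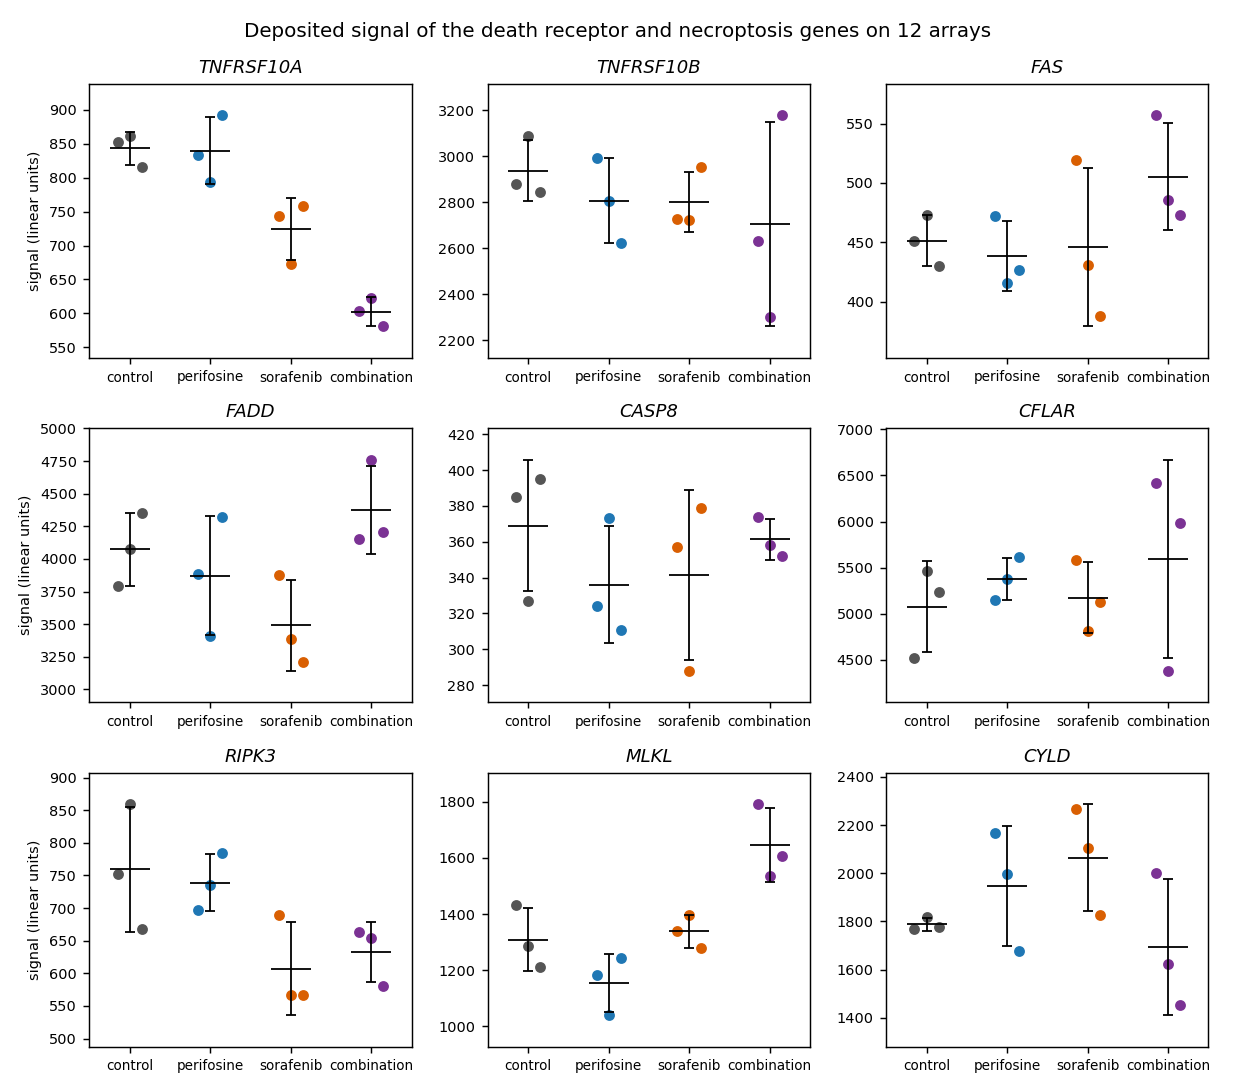
Deposited signal in linear units (y axis, not starting at 0) of the probe used for each of the 9 measured genes, by group (x axis). Points are single arrays, the long line is the group mean and the bars are 1 SD (n = 3). The combination arrays of TNFRSF10A sit at 581 to 623, below all other arrays, and those of MLKL at 1537 to 1791, above all other arrays.

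TNFRSF10B (TRAIL receptor 2, DR5), the other TRAIL receptor with a death domain, did not follow TNFRSF10A. Its signal was 2878, 3089 and 2847 in the control, 2995, 2804 and 2624 with perifosine, 2727, 2724 and 2953 with sorafenib, and 2633, 2301 and 3179 in the combination. All 4 groups overlapped, and the combination arrays were the most spread. The combination against control gave a log2 change of -0.14 ± 0.12, with a 95% interval from -0.41 to 0.13 (adjusted p = 0.729), and no comparison of this gene passed the threshold. A second passing probe of TNFRSF10B, above background on 10 of 12 arrays, gave -0.02 for the same comparison, and the remaining one was above background on 1 array and was not tested.

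FAS, the receptor of FAS ligand, measured 451, 473 and 430 in the control, 472, 416 and 427 with perifosine, 519, 431 and 388 with sorafenib, and 557, 486 and 473 in the combination. The combination arrays did not overlap the control arrays, though the nearest pair are both 473 when rounded, and the sorafenib arrays spanned the control range. The log2 difference of 0.21 ± 0.15 between combination and control did not pass the threshold (adjusted p = 0.620).

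The adaptor FADD measured 3789, 4079 and 4349 in the control, 3888, 3409 and 4320 with perifosine, 3878, 3384 and 3208 with sorafenib, and 4154, 4760 and 4210 in the combination. Its 3 combination arrays lay above its 3 sorafenib arrays, a log2 difference of 0.34 ± 0.12 that did not pass the threshold (adjusted p = 0.809), and they overlapped the control arrays. Its interaction estimate of 0.42 ± 0.17 did not pass either (adjusted p = 0.635).

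CASP8, the initiator caspase, measured 385, 327 and 395 in the control, 324, 373 and 311 with perifosine, 357, 288 and 379 with sorafenib, and 374, 358 and 352 in the combination, with all 4 groups overlapping. The combination against control gave a log2 change of -0.03 ± 0.17, with a 95% interval from -0.40 to 0.33 (adjusted p = 0.965). Other CASP8 probes, which read other transcript forms, gave -0.18 (above background on 10 of 12 arrays) and -0.02 for the same comparison. In perifosine against control the used probe gave -0.20 and these gave 0.30 and 0.09. In the combination against perifosine the values were 0.17, -0.48 and -0.12. The probes thus differ in sign there, and none passed. A further probe was above background on 1 of 12 arrays and was not tested. The used probe, at 288 to 395, is itself not far above the background threshold.

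CFLAR, the inhibitor of caspase-8 activation also called c-FLIP, measured 4518, 5467 and 5239 in the control, 5152, 5376 and 5610 with perifosine, 5585, 4817 and 5122 with sorafenib, and 6421, 4381 and 5985 in the combination. The combination held both the highest and the lowest array of the 12. The change against control was 0.13 ± 0.14, with a 95% interval from -0.18 to 0.44 (adjusted p = 0.781).

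In the necroptosis branch, MLKL was higher in the combination than with perifosine alone, while RIPK3 showed lower values on the sorafenib arrays that did not pass the threshold. MLKL measured 1431, 1286 and 1210 in the control, 1184, 1040 and 1242 with perifosine, 1340, 1396 and 1280 with sorafenib, and 1791, 1537 and 1607 in the combination. The combination arrays lay above all 9 others, while the control, perifosine and sorafenib arrays partly overlapped.

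MLKL rose by 0.56 ± 0.12 on the log2 scale, 1.47-fold, in the combination against perifosine, with a 95% interval from 0.31 to 0.81 (adjusted p = 0.0490). That p is next to the threshold, and leaving out any 1 of the 12 arrays ended the call (adjusted p 0.0563 to 0.166), with the value staying between 0.48 and 0.62. It was also lost in 6 of 12 other settings, with adjusted p up to 0.167: without a filter, with the probe of largest variance, over every passing probe, with only the groups compared, with the replicate block and without both perifosine B and sorafenib C. Against control the combination gave 0.36 ± 0.12, with a 95% interval from 0.11 to 0.61, and did not pass (adjusted p = 0.233). Perifosine alone gave -0.20 ± 0.12 and sorafenib alone 0.04 ± 0.12, neither passing. The interaction, the amount by which the combination exceeded the sum of the single drug effects on this scale, was 0.52 ± 0.17 with an unadjusted p of 0.00746 and an adjusted p of 0.599. It was the smallest adjusted p of the 9 genes in that contrast. Over 6 arrays with sorafenib against 6 without, MLKL gave 0.30 ± 0.08 (adjusted p = 0.0656), which passed in 4 of 11 alternative settings.

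RIPK3, the kinase that phosphorylates MLKL, measured 752, 859 and 668 in the control, 697, 735 and 785 with perifosine, 690, 566 and 566 with sorafenib, and 663, 654 and 580 in the combination. The 3 combination arrays lay below all control and perifosine arrays, but 1 sorafenib array, at 690, lay within the control range. The log2 change was -0.39 ± 0.14 with sorafenib alone (adjusted p = 0.208) and -0.31 ± 0.14 in the combination (adjusted p = 0.388). Over 6 arrays with sorafenib against 6 without it was -0.33 ± 0.10, with an adjusted p of 0.0871. It passed the threshold in 2 of 11 alternative settings, without background correction (adjusted p = 0.0442) and with a filter that keeps only probes above background on all arrays (adjusted p = 0.0463).

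CYLD measured 1769, 1818 and 1776 in the control, 2166, 1999 and 1677 with perifosine, 2265, 2103 and 1826 with sorafenib, and 2003, 1624 and 1451 in the combination. The control arrays lay close together and the treated groups were wide, with the sorafenib arrays above the control arrays and the combination arrays spanning them. The log2 change was 0.22 ± 0.15 with sorafenib (adjusted p = 0.527) and -0.10 ± 0.15 in the combination (adjusted p = 0.845). A dimmer CYLD probe gave 0.37 and 0.23 for these comparisons, so the probes differ in sign for the combination.

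**Figure D2:**
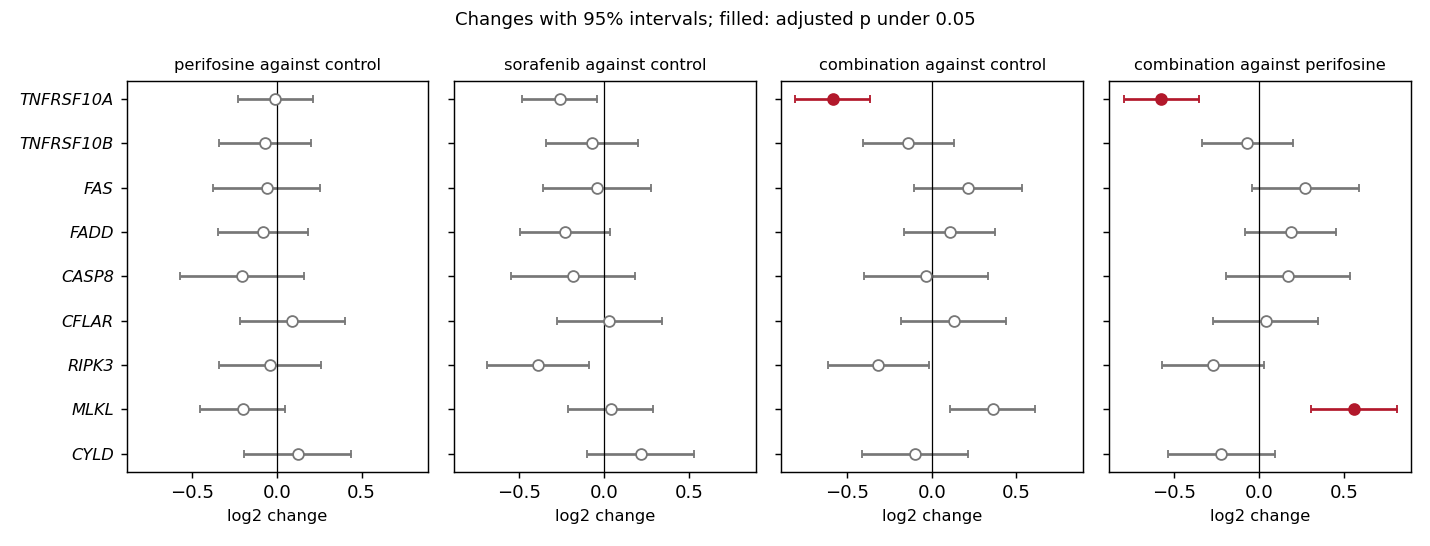
Log2 change (x axis) of the 9 measured genes (y axis) in 4 comparisons, with 95% intervals. Filled points have an adjusted p under 0.05. TNFRSF10A is filled in both comparisons of the combination shown, MLKL only in that against perifosine.

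These counts were read against all genes tested. Perifosine against control changed none of the 9 genes and 0% of all 13613 genes, with a smallest adjusted p of 0.990 over all genes. At an unadjusted p under 0.05, 548 genes (4.03%) and 0 of the 9 passed. Sorafenib against control changed 0 of the 9 genes beside 0.823% of all genes, the combination against control 1 beside 0.624%, and the combination against perifosine 2 beside 0.691%. The combination against sorafenib changed 0 of the 9 and 0% of all genes. There 828 genes (6.08%) passed an unadjusted p under 0.05, 4 of the 9 among them (TNFRSF10A, FADD, MLKL and CYLD). By that unadjusted measure, sorafenib against control had 2 of the 9 beside 14.9% of all genes. The combination had 3 beside 12.1% against control and 2 beside 13.3% against perifosine.

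The interaction of the drugs likewise changed 0 of the 9 and 0% of all genes, with 1037 genes (7.62%) and 3 of the 9 at an unadjusted p under 0.05. The sorafenib effect over 6 against 6 arrays changed 1 of the 9 beside 3.64% of all genes. At an unadjusted p under 0.05 it had 3 of the 9 beside 18.0% of all genes. The perifosine effect over 6 against 6 changed 0 of the 9 beside 0% of all genes, with 458 genes (3.36%) and 1 of the 9 at an unadjusted p under 0.05. TNFRSF10A, FAS, RIPK3 and MLKL had combination arrays that did not overlap the control arrays, 4 of 9, beside 20.5% of all genes. TNFRSF10A alone of the 9 had no overlap between the 6 arrays with sorafenib and the 6 without, beside 3.96% of all genes. The median log2 change of the 9 genes was -0.06 with perifosine, -0.07 with sorafenib and -0.03 in the combination, each against control, beside medians of 0.00 over all genes.

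**Figure D3:**
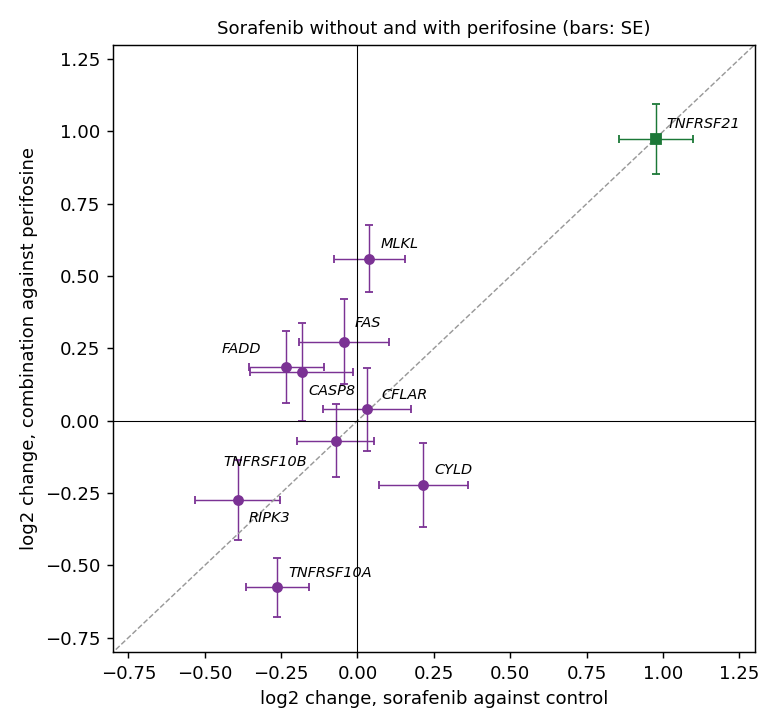
Log2 change with sorafenib alone against control (x axis) and with sorafenib added to perifosine (y axis), for the 9 measured genes and TNFRSF21 (square), with bars of 1 SE. The 2 comparisons share no array. TNFRSF21 lies near the diagonal at about 1 on both axes, whereas MLKL lies at 0.04 and 0.56 and TNFRSF10A at -0.26 and -0.58.

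Ligands and receptors outside the set were followed in lists of 8 death ligands and 11 other receptors of the TNF receptor family. Not all of these 11 are death domain or decoy receptors. TNFRSF21 (DR6), a receptor with a death domain, measured 323, 377 and 333 in the control, 352, 372 and 319 with perifosine, 570, 566 and 541 with sorafenib, and 548, 590 and 558 in the combination. The 6 arrays with sorafenib lay above the 6 without, at nearly the same level with and without perifosine. It rose by 0.98 ± 0.12 with sorafenib (adjusted p = 0.00222), 0.996 ± 0.12 in the combination (adjusted p = 0.00251) and 0.98 ± 0.09 over 6 against 6 arrays (adjusted p = 6.97e-05), and all of these calls held in every one of 12 fits that left out 1 array. Without background correction the size was smaller, 0.70 with sorafenib. Of the 11 receptors 6 were tested and TNFRSF21 was the only one called. The share of all genes called was 0.823% with sorafenib, 0.624% in the combination and 3.64% over 6 against 6 arrays. The decoys TNFRSF10D, TNFRSF11B and TNFRSF6B were above background on no array, and neither was LTBR of the same list.

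All 8 death ligands were tested, and over 6 against 6 arrays 2 rose with sorafenib and none fell, beside 3.64% of all genes called (339 higher and 157 lower). The median change of the 8 was 0.12, beside 0.00 over all genes. LTA (lymphotoxin alpha) rose by 0.41 ± 0.10 (adjusted p = 0.0436) and LTB, its partner in the membrane-bound lymphotoxin, by 0.34 ± 0.08 (adjusted p = 0.0420). These calls held in 1 and 2 of 12 fits that left out an array, respectively, and another LTB probe gave 0.17. Sorafenib alone against control gave 0.28 for LTA (adjusted p = 0.395) and 0.19 for LTB (adjusted p = 0.471), neither passing. Perifosine alone against control gave -0.26 for LTA and -0.22 for LTB, not passing either. TNFSF10, which encodes TRAIL, gave 0.34 ± 0.09 and did not pass (adjusted p = 0.0552).

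The complexes beneath the receptors were read beside the share of all genes called. That share was 3.64% for the sorafenib effect over 6 against 6 arrays and at most 0.823% in the other contrasts. The lists are short, so the counts below are a description and not a result about each list. Of 13 tested adaptors and caspases of the extrinsic pathway none was called. Of 13 tested ubiquitin-editing and inhibitor of apoptosis (IAP) genes, TRAF5, an adaptor of TNF receptors, rose with sorafenib by 0.35 ± 0.08 over 6 against 6 arrays (adjusted p = 0.0377), its call holding in 2 of 12 fits that left out an array, with other probes at 0.12 and 0.38. Of 12 tested kinases of the receptor complex, IKBKE rose by 0.39 ± 0.09 (adjusted p = 0.0321), holding in 2 of 12. Its signal of 256 to 352 lies close to the background threshold, and the lowest value among other settings was 0.24. None of 14 tested necroptosis regulators and none of 12 mitochondrial death factors was called in any of the 8 contrasts.

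The inflammatory caspases and gasdermins, an alternative lytic pathway in which caspase-1 is activated by an inflammasome, had 2 of 7 tested genes called over 6 against 6 arrays, beside 3.64% of all genes. Their median change there was 0.08, beside 0.00 over all genes. PYCARD, the adaptor of the inflammasome, measured 9494, 9879 and 10299 in the control, 10259, 10596 and 9786 with perifosine, 14077, 13999 and 15099 with sorafenib, and 11758, 15133 and 14213 in the combination. It rose with sorafenib by 0.55 ± 0.11 (adjusted p = 0.0388, holding in 3 of 12 fits that left out an array) and by 0.48 ± 0.08 over 6 against 6 arrays (adjusted p = 0.00467, holding in all 12). CASP1 measured 2706, 2607 and 2616 in the control, 2728, 2917 and 2630 with perifosine, 3305, 3105 and 3220 with sorafenib, and 3465, 3434 and 3494 in the combination. Its 6 arrays with sorafenib lay above the 6 without, and it rose by 0.32 ± 0.07 (adjusted p = 0.0179, holding in 11 of 12). Another CASP1 probe gave 0.34 and did not pass (adjusted p = 0.0509 over all passing probes). The levels of different probes are not compared with each other.

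**Figure D4:**
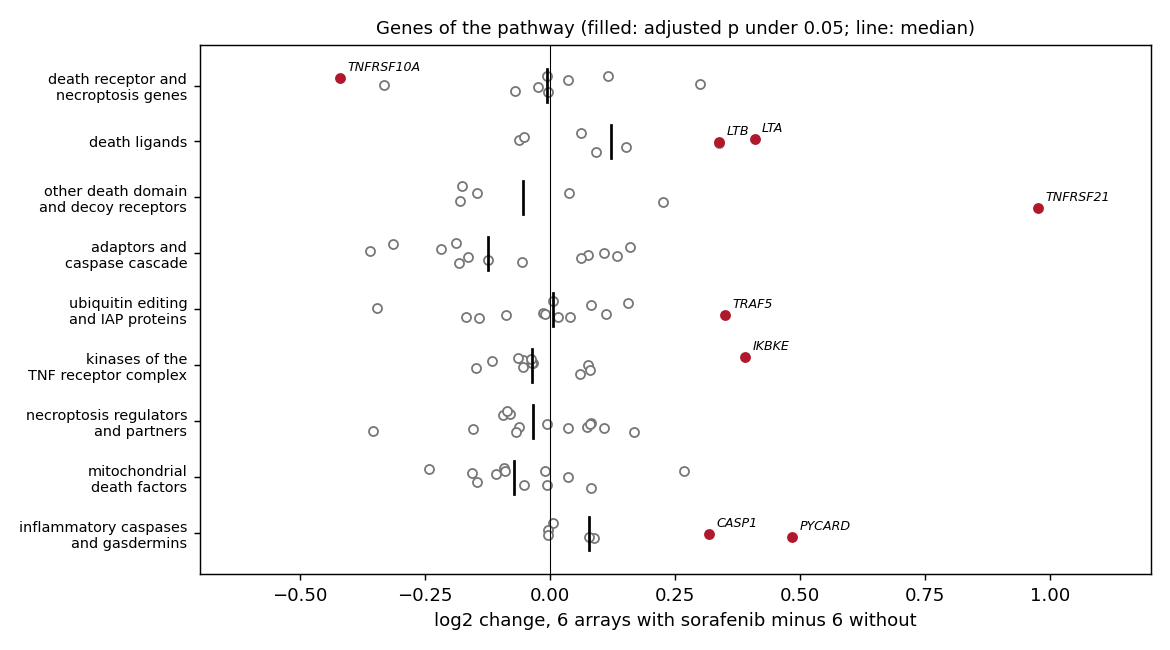
Log2 change over 6 arrays with sorafenib minus 6 without (x axis) for the 9 measured genes and the tested genes of 8 pathway lists (rows). Each point is a gene, filled where its adjusted p is under 0.05, and the vertical line is the median of the list. TNFRSF10A is the one filled point below 0 and TNFRSF21 the filled point farthest above.

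Markers were examined beside these changes, since fewer cells of a type and less RNA per cell cannot be told apart in bulk RNA. The summed signal of the Hodgkin markers was 91639 to 99634 in the control, 87213 to 95065 with perifosine, 103751 to 108810 with sorafenib and 101826 to 113828 in the combination, so the sorafenib arrays were higher. CCL17, TRAF1 and FSCN1 were called higher over 6 against 6 arrays, 3 of 8 tested in this list, beside 3.64% of all genes. None was called lower, but 2 of the 8 were below 0, down to -0.28, so the list did not move as one. Of the 8 T and NK cell markers, CD2 and NKG7 were above background on every array and CD5 on none. The others were above it on at most 1 array (CD8A), 3 (CD3D and CD7), 5 (CD3G) and 7 (CD3E). NKG7 rose by 0.58 ± 0.08 over 6 against 6 arrays (adjusted p = 0.00219), the only 1 called of 6 tested in this list. Of these 6, 2 were below 0, down to -0.13, so 1 called gene does not speak for the list. The summed signal of that list was 13411 to 15296 in the control, 14667 to 15919 with perifosine, 15733 to 16102 with sorafenib and 15509 to 16491 in the combination, so the perifosine arrays overlapped those with sorafenib. In the combination against perifosine, the contrast in which MLKL was called, NKG7 rose by 0.82 ± 0.12 (adjusted p = 0.00695), and CCL17 and TRAF1 were called higher too. These were 1 of 6 tested T and NK cell markers and 2 of 8 tested Hodgkin markers, beside 0.691% of all genes. In the same contrast 1 of the 6 was below 0, at -0.23, and 2 of the 8 were, down to -0.24. The myeloid markers, 4 of 8 on every array and MPO on none, summed to 3284 to 3584 in the control, 3081 to 3719 with perifosine, 3363 to 3520 with sorafenib and 3656 to 3720 in the combination. The combination arrays were thus above all control and sorafenib arrays, and 0 of 7 tested myeloid markers were called in any contrast. The B cell markers (MS4A1 on every array, and PAX5, CD22 and BLK on none) summed to 1429.5 to 1634 over all arrays. The fibroblast and endothelial markers summed to 1699 to 1825, and in both lists the 4 groups overlapped. Only 1 of 7 B cell markers with a probe, and 1 of 8 of the other list, was above background on every array. Both sums thus lie largely near the background threshold, where overlap of the groups says little. The 8 measured housekeeping genes summed to 247591 to 258688 over all arrays. The part of these markers in the changes of the death receptor genes was not tested.

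The genes most like TNFRSF10A over the 12 arrays, by Pearson's r of log2 signal, were UTP11 (0.937), CXCL8 (0.920), SNORD16 (0.907), RHOT2 (0.900) and TWNK (0.900). CXCL8, the chemokine interleukin-8, measured 317, 300 and 278 in the control, 282, 278 and 276 with perifosine, 239, 245 and 267 with sorafenib and 219, 222 and 227 in the combination, which puts the groups in an order like that of TNFRSF10A. Combination arrays A and B were below the background threshold for CXCL8 and C was just above it, so the place of that group is set close to the floor. For MLKL they were HLA-F (0.943), ODAPH (0.925), SARS1 (0.921), COP1 (0.920) and FLOT1 (0.892). The 12 points share the same 4 groups and normalization and are given as a description.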

How the data were processed

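HDLM-2 total RNA was labelled and hybridised to Illumina arrays, per the labels' protocols. The processed intensity of each probe on each array, on a linear scale, was deposited by the authors. BeadStudio is named, with no version, per the submitters' processing notes, and how the values were normalized was not given in the sources used here. The sorted intensities of the 12 arrays differ by at most 1.09%. A second table has 24 columns that match no sample label and was not used.

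Values were background-corrected with normexp (offset 16), quantile normalized and set to log2 in R 4.3.3 with limma 3.58.1. A probe was kept if above the array's background threshold (the mode plus the upper 5% point of the dim spread, 224.6 to 225.2) on at least 3 of 12 arrays. This kept 18541 of 28098 probes with 1 gene symbol, and the brightest kept probe stood for its gene (13613 genes). One model with a mean per group over all 12 arrays gave 8 contrasts, with Benjamini-Hochberg adjustment over all genes in each. Only the model fit was tried on simulated data, and no outcome of that trial is given here. The background correction, normalization, probe filter and choice of probe per gene were not tested in that way. No count of reads exists for arrays, and the number of arrays limits the precision.

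The members and lists were chosen with earlier results of these data known. The genes named are all members, each called gene of the pathway lists (at most 4 per list and contrast) and, for each called member, the 5 most correlated genes. CXCL8's values and the uncalled TNFSF10, LTBR and decoy receptors were added after their values were seen. The alternatives tried were leaving out arrays (12 fits) and 12 other settings. Figures were drawn with matplotlib 3.10.9. Promoters came from RefSeq, GRCh38.p14.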

Additional observations from a re-analysis of the deposited data

How the results depend on the processing

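The 9 genes under 8 contrasts gave 1701 values under alternative settings: 1576 kept direction and side of the threshold, 34 lost a call, 6 gained one, 85 uncalled values changed sign, and 0 called values did. Counts of the 9 genes called by perifosine, by sorafenib alone, by the combination against sorafenib, by the interaction and by the perifosine effect over 6 against 6 arrays stayed at 0 in every setting run. For the sorafenib effect over 6 against 6 arrays, 1 gene was called, and 3 without background correction, 3 with probes above background on all arrays, 2 with array weights and 2 with a trended robust prior (MLKL in all of these, RIPK3 in the first pair). For the combination against perifosine, 2 were called, and 0 without a filter, 1 with the probe of largest variance, 1 over every passing probe, 0 with only the groups compared, 0 with the replicate block and 1 without both perifosine B and sorafenib C, with 0 to 1 when 1 array was left out. For the combination against control, 1 was called, and 0 with only the groups compared, 0 with the replicate block and 0 to 1 when 1 array was left out. The cause was not tested.

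The labels do not say whether the replicate letters pair the samples. Over 18 same-letter pairs the correlation of deviations from the group means was -0.24 to 0.21. Of 12 arrays, 3 correlated best with their own letter, and such values cannot decide whether the samples were paired. The highest correlation between different letters was 0.39, for perifosine B with sorafenib C, the arrays left out together in one setting. Over all genes, the sorafenib against control count was 112 and ranged from 23 (only the groups compared) to 251 (no background correction). It was 85, from 52 to 208, for the combination against control, 94, from 21 to 289, for the combination against perifosine, and 496, from 247 (no filter) to 951 (array weights), for the sorafenib effect. With 1 array left out, these 4 counts ranged from 36 to 168, 34 to 116, 24 to 100 and 270 to 502. Fits of only the groups compared were not run for the interaction and the 6 against 6 effects, which use all groups.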
